A study of Mus musculus with 24 samples.

Results

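DNA repair genes were followed as a set of 38 genes through chromatin accessibility profiles of small intestinal epithelium from aged and young mice. The set holds kinases, break sensors, nucleases, ligases, glycosylases, mismatch readers and helicases of all the main repair pathways, and its members were chosen by name. Peaks counted for a member were those that the deposited annotation named for it within 50000 bp of its transcription start site, with promoter peaks (1000 bp or less) kept apart from distal ones. This gave 93 of 150646 consensus peaks, 26 of them promoter peaks of 21 genes and 67 of them distal peaks of 27 genes. In all, 33 members had at least 1 such peak, and Chek2, Mre11a, Prkdc, Mutyh and Parp1 had none.

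ATAC-seq gave the accessibility values: a transposase cuts open chromatin and leaves sequencing adapters there. The epithelium came fresh from C57BL/6JRj mice with no genetic or drug treatment in the labels, was released by EDTA and trypsin, and was sorted as EpCam+ CD45- cells, a gate that takes epithelial cells and leaves out leukocytes. The 3 aged libraries (numbers 1, 2 and 4) were set against 3 young libraries (numbers 1, 2 and 4), each deposited as 4 lanes that count here as 1 sample. Ages of 20 to 22 months (aged) and 2 to 3 months (young) come from design text that the series gives for related assays. Age is the only contrast these libraries allow. Nothing in the labels ties a library to a single animal, so p-values measure the spread between these libraries, and in a bulk sample fewer cells with an open site and less access per cell cannot be told apart.

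Repair proteins guard the fast-renewing crypt of the intestine, where stem cells copy their genome again and again. The kinases ATM and ATR sense breaks and stalled forks, homologous recombination and end joining rejoin broken ends, and base excision, mismatch and nucleotide excision repair remove damaged or mispaired bases. Most repair genes are transcribed in many cell types from CpG-rich promoters that often sit back to back with the promoter of a neighbouring gene.

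The promoters of 4 members are printed here, picked by p-value, and none of these promoters passed the test between ages. Brca1 was the member with a peak that passed that test, an intronic peak outside the printed window. Atr, Lig1 and Ercc5 had the smallest p-values for promoter peaks named for them, among members with a RefSeq window. Each is the RefSeq window from 250 bp before to 50 bp after the start site on GRCm38.p6, read 5′ to 3′ on the strand of the gene, and capitals mark the motifs found. The Brca1 window is chr11:101551906-101552205 on the minus strand and lay wholly inside a peak. The Atr window is chr9:95857347-95857646 (plus strand), the Lig1 window is chr7:13278576-13278875 (plus strand) and the Ercc5 window is chr1:44147494-44147793 (plus strand).
Brca1: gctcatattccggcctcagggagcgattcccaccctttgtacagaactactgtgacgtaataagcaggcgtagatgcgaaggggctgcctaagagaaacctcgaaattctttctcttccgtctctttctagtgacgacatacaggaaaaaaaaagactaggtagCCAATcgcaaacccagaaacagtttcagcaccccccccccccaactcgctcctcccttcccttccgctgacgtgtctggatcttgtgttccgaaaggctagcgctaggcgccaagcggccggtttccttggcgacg
Atr: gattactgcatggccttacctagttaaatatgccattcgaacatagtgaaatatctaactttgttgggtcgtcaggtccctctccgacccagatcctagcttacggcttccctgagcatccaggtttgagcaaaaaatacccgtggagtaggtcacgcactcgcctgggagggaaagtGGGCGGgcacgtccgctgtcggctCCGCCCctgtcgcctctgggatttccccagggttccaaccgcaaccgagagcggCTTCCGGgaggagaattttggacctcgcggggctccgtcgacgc
Lig1: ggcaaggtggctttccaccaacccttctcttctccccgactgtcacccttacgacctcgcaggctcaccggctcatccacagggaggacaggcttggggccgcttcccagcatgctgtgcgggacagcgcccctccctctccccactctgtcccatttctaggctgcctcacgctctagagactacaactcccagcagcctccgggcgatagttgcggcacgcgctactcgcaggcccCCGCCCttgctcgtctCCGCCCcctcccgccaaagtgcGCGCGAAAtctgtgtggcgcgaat
Ercc5: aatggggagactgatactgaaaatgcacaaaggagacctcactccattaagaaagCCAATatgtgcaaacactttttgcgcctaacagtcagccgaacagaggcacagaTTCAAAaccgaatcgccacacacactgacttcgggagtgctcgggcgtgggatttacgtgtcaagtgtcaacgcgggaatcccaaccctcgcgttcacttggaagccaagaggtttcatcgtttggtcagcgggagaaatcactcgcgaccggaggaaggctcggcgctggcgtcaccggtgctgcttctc

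The capitals in Brca1 are an NFY motif (CCAAT), those in Atr are a pair of Sp motifs (GGGCGG and its complement CCGCCC) and an ETS motif (CTTCCGG), those in Lig1 are a pair of Sp motifs and an E2F motif (GCGCGAAA), and those in Ercc5 are an NFY motif and a CHR motif (TTCAAA). Peaks covered 100% of the Brca1 and Lig1 windows, 73.67% of the Atr window and 59% of the Ercc5 window. Both Ercc5 motifs lay before the start of its peak, outside the covered part. Motifs were searched on both strands and none of them contains another. RefSeq windows were available for 30 members, as 34 windows, and Rad50, Nbn, Prkdc, Polb, Ercc3, Xpc, Fancd2 and Wrn were not matched. CCAAT stood in 58.8% of the member windows, against 37.4% of all 32851 windows of this length and 37.6% of windows at protein-coding starts that carried a peak. The Sp motif GGGCGG stood in 64.7% of member windows, against 35.7% of all windows and 60.9% of protein-coding windows with a peak. The ETS motif CCGGAAG stood in 23.5%, against 8.86% and 15.6% of the same backgrounds. The E2F motif (TTTCGCGC or TTTGGCGC), a site read by factors of the division cycle, was in 2 member windows, those of Lig1 and Msh3, or 5.88% against 0.813% of all windows and 1.43% of protein-coding windows with a peak. The E-box CACGTG stood in 17.6% of member windows, against 7.15% of all windows and 9.58% of protein-coding windows with a peak. The remaining motifs were in 1 member window each (2.94%) or in 0. The CHR motif TTTGAA, in 1 window, stood in 17.9% of all windows and 11.8% of protein-coding windows with a peak, the NRF1 motif, in 1, stood in 0.971% and 1.83%, and the CRE motif TGACGTCA, in 1, stood in 1.79% and 2.93%. The YY1 motif, in 0 of the 34 member windows, stood in 0.852% and 1.73%. The member windows had a median GC content of 59.2% and 22.5 CpG dinucleotides, against 52.7% and 7 over all windows and 60.3% and 19 over protein-coding windows with a peak. These matches describe the letters of the windows and were not tested as binding sites.

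Counts in peaks per library ran from 16900796 to 23935291 in aged mice and from 6149680 to 22819924 in young mice, young 4 being the shallowest. Values are CPM, counts scaled to a common library total, set separately for single peaks, for promoter sums, for distal sums and for sums at RefSeq start sites, so CPM values compare libraries within one of these scales. Epithelial identity was checked on promoter peaks, with marker counts given per total peak counts of the library, a scale lower than that of the promoter sums: 10 of 12 epithelial marker genes had one, and together they took 382 to 400 CPM in aged libraries and 397 to 430 in young libraries. Of 16 leukocyte markers 3 had a promoter peak (Cd79b, Cd14 and Coro1a), and together these took 29.9 to 36.0 CPM in aged libraries and 30.7 to 32.0 in young ones. No promoter peak was named for the other leukocyte markers, Ptprc and Cd3e among them, nor for the epithelial markers Krt19 and Vil1. Each peak is named for 1 gene, so a missing name does not show that a start site lacked a peak. Of 10 stromal and endothelial markers 4 had a promoter peak, with 21.7 to 23.8 CPM in aged libraries and 18.7 to 22.3 in young ones. No marker promoter passed the test between ages.

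Of all RefSeq genes 56.5% had a peak within 1000 bp of their start, as did 11709 of the 17492 protein-coding ones. All 30 members with a RefSeq window had such a start-site peak. The deposited annotation gives each peak to 1 gene, not always the one with the nearest RefSeq start. It named this peak for the member itself in 17 of 30 cases and for another gene in 13. The start-site peak of Brca1 was named for Gm27456, that of Parp1 for Mir6904, that of Parp2 for Rpph1, that of Chek2 for Hscb and that of Mutyh for Toe1. The start-site peaks of Chek1, Ercc1, Ercc4 and Lig4 were named for the gene but listed at -3838, -7333, -22475 and 1442 bp. Because of this, counts were also summed over every peak within 1000 bp of a RefSeq start site, whatever gene it was named for, a step added after the files were seen. It gave a start-site value for 17 members that had no tested promoter, so that 37 of 38 members had a value, all but Prkdc, a kinase of end joining.

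Many of these start sites were shared with a neighbour. A protein-coding gene on the opposite strand started within 1000 bp, on either side, of the start of 12 of 30 members (40%). This held for 9.61% of 17492 protein-coding genes and 14.0% of the 11709 with a peak at their start. The pairs were Atm with Npat (376 bp between starts), Atr with 1700065D16Rik (80 bp), Mre11a with Ankrd49 (81 bp), Brca1 with Nbr1 (152 bp), Palb2 with Dctn5 (95 bp) and Xrcc6 with Desi1 (149 bp). The others were Lig4 with Abhd13 (37 bp), Mutyh with Toe1 (175 bp), Apex1 with Osgep (56 bp), Xrcc1 with Pinlyp (694 bp), Lig1 with Zswim9 (105 bp) and Pms2 with Aimp2 (162 bp). At such a start site the peak cannot be given to one gene of the pair.

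The members' start sites were among the more open ones of all genes tested, protein-coding or not. Per kilobase of peak, tested member promoters had a median level of 40.1 CPM per kb, against 25.1 CPM per kb over all 13869 promoters tested, and 16 of 20 lay above that median. At RefSeq start sites the median level was 61.7 CPM per kb, against 29.7 CPM per kb over all 14808 genes tested, with 27 of 30 members above it. Blm, a RecQ helicase that undoes crossed strands, had the highest promoter level at 98.3 ± 7.72 CPM per kb in aged and 105.1 ± 9.47 CPM per kb in young libraries (SD, n = 3 each). Atm followed at 98.0 ± 2.67 CPM per kb in aged and 96.9 ± 9.34 CPM per kb in young libraries, within the spread of Blm. Fancd2, the protein that the Fanconi anaemia complex marks with ubiquitin, and Rad50, the coiled-coil ATPase of the MRN complex, were lowest. The Rad50 value rests on a single peak of 178 bp that held 4 to 21 counts per library. That peak was annotated to an intron and listed at 646 bp. Without a RefSeq window for Rad50, it could not be placed at the start site.

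**Figure D1:**
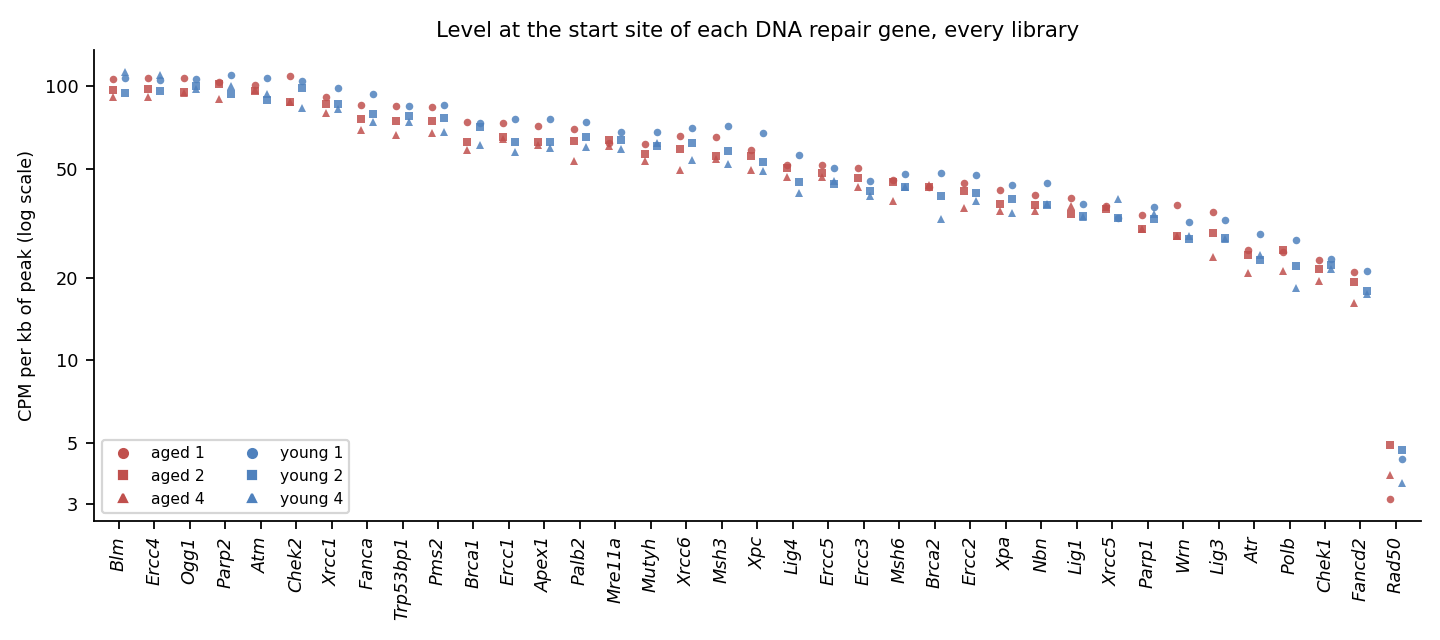
Level at the start site of 37 DNA repair genes, in CPM per kb of peak (log axis), with one point per library, aged libraries left of young ones and the marker shape giving the library number; genes run from the highest to the lowest mean. Blm stood highest at about 101.7 CPM per kb. Rad50 was lowest at 4.09 CPM per kb, from an intronic peak that no RefSeq start was available to place. For most genes the aged and young points overlapped.

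Between ages, no member promoter passed the test. In the quasi-likelihood fit of edgeR, with Benjamini-Hochberg adjusted p-values over every promoter tested, 0 of 20 tested member promoters had an adjusted p under 0.05, where 1.74% of all 13869 promoters did. Without adjustment 0 of 20 had p under 0.05, against 8.92% of all promoters. DESeq2 and limma-voom called 0 members, against 204 and 277 of all 13869 promoters. With a replicate block edgeR called 0 members, where it called 3.34% of all promoters. Their log2 fold changes, aged over young, had a median of -0.013 and ran from -0.11 (Atr) to 0.15 (Ercc3), beside a median of -0.0016 over all promoters. The ages did not overlap for 3 of the 20, Ercc3 and Ercc5 (higher in aged) and Xrcc1 (lower in aged), while this held for 14.0% of all promoters. Ercc2 had a single promoter peak of 103 bp with 1, 3 and 2 counts in aged and 10, 4 and 1 counts in young libraries, too few to be tested.

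Summed at RefSeq start sites, 0 of 30 members passed the same test, against 1.59% of all genes. DESeq2 and limma-voom again called 0, against 197 and 297 of all 14808 genes. One member, Mutyh, had an unadjusted p under 0.05, whereas 9.02% of all genes did. The log2 fold changes of these 30 members had a median of -0.038, with 7 above zero and 23 below, beside -0.0012 over all genes, with 7333 above and 7475 below. The ages did not overlap for 4 of 30, 1 higher and 3 lower in aged, and for 14.5% of all genes. Over the 37 members with a value, 11 log2 fold changes were above zero and 26 below. Leaving out the thinly covered Rad50, the 95% intervals of the other 36 lay between -0.31 and 0.32 on the log2 scale, that is from 1.24-fold lower to 1.245-fold higher in aged. The peaks around these start sites took 0.152 to 0.171% of all counts in aged and 0.159 to 0.176% in young libraries.

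**Figure D2:**
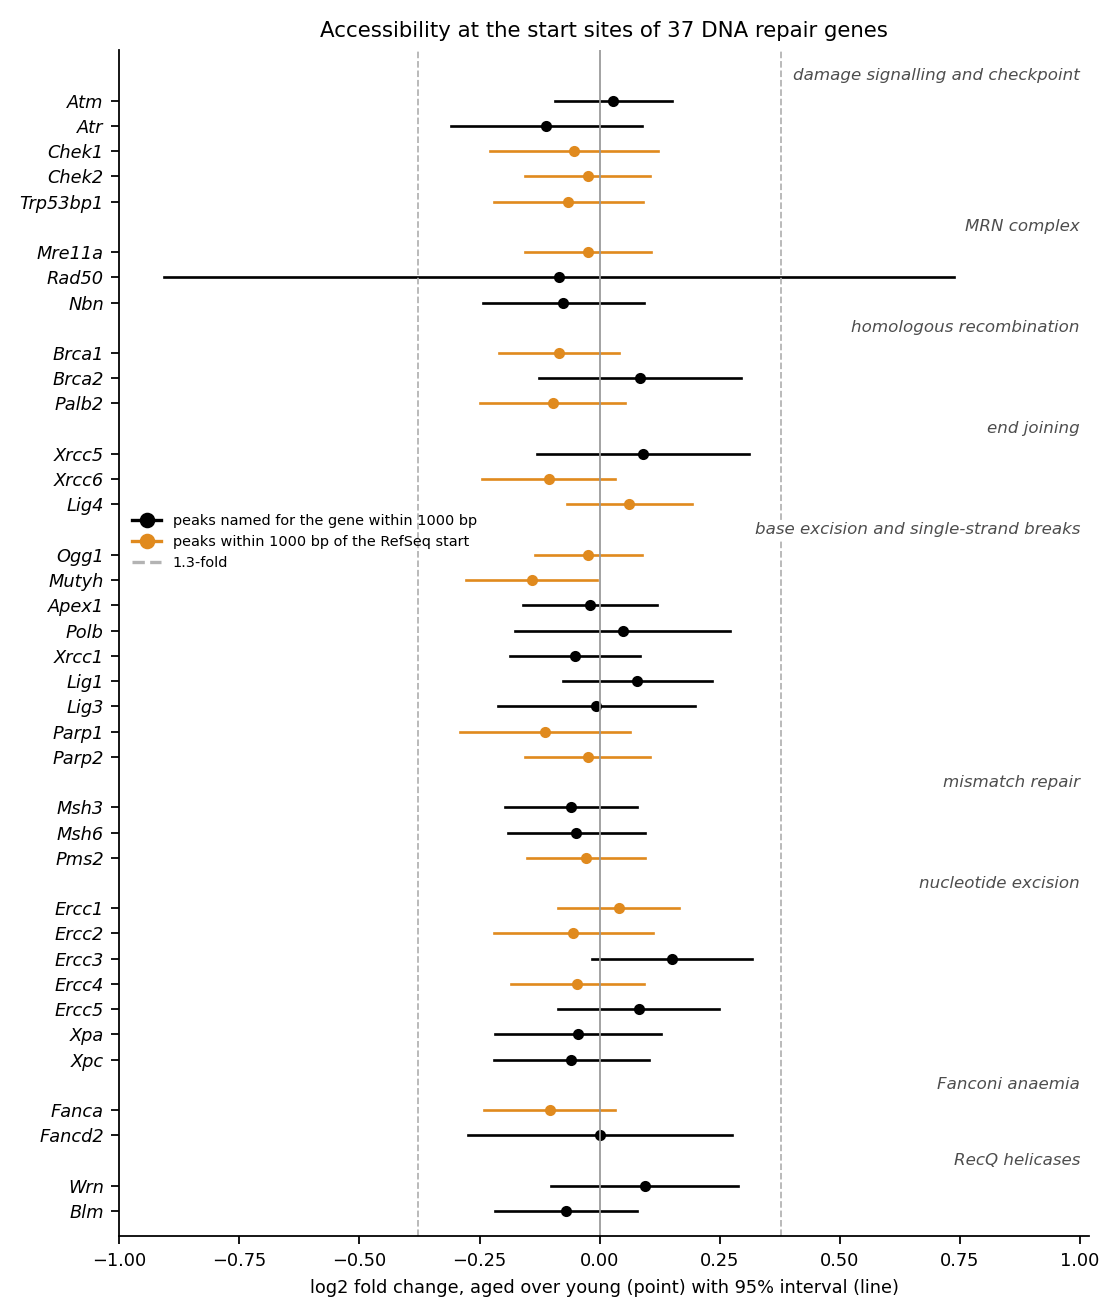
Log2 fold change, aged over young, at the start sites of 37 DNA repair genes grouped by role; points are estimates and lines 95% intervals, black for promoter peaks named for the gene and orange for all peaks within 1000 bp of the RefSeq start, with dashed lines at 1.3-fold. Every interval except that of Mutyh includes 0, and every interval except that of Rad50 lies inside the dashed lines.

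Among the kinases and mediators of damage signalling, Atm, which answers double-strand breaks, had promoter levels of 232.3, 234.0 and 242.1 CPM in aged against 237.1, 218.5 and 242.7 CPM in young libraries. These overlapped, with a log2 fold change of 0.028 ± 0.059 (SE). Atr, which answers stalled forks, had 61.8, 62.5 and 55.7 CPM in aged against 68.0, 60.6 and 66.9 CPM in young libraries, the lowest log2 fold change among the promoters (-0.11, SE 0.097 and edgeR adjusted p = 0.85). Aged 4 was the lowest of the 6 Atr values and the other aged ones lay within the young range. Chek1, the kinase downstream of ATR, had start-site levels of 56.5, 56.0 and 52.5 CPM in aged against 54.9, 58.1 and 59.7 CPM in young libraries (log2 fold change -0.053). Chek2, the kinase downstream of ATM, and Trp53bp1, a chromatin reader that steers breaks toward end joining, had start-site log2 fold changes of -0.025 and -0.065. In the MRN complex, which tethers broken ends, Nbn had 89.7, 87.8 and 85.5 CPM in aged against 95.4, 88.3 and 93.8 CPM in young libraries. All aged Nbn values but that of aged 1 lay below the young range, at a log2 fold change of -0.075 (edgeR adjusted p = 0.90). The nuclease gene Mre11a had a start-site log2 fold change of -0.025, and Rad50 had -0.085 with a wide 95% interval of -0.91 to 0.74.

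In homologous recombination, Brca1, the ligase that promotes end resection, had start-site levels of 182.7, 165.4 and 159.0 CPM in aged against 174.8, 188.0 and 172.3 CPM in young libraries. The aged libraries held both the lowest and, but for young 2, the highest of these, and the log2 fold change was -0.085 (SE 0.060 and edgeR adjusted p = 0.78). Brca2, which loads the recombinase onto single strands, had promoter levels of 56.0, 59.4 and 62.2 CPM in aged against 60.5, 55.2 and 48.1 CPM in young libraries. These overlapped, at a log2 fold change of 0.084, and Palb2, the bridge between the BRCA proteins, had a start-site value of -0.098. In end joining, Xrcc6, a subunit of the end-binding Ku dimer, had start-site levels of 144.1, 137.5 and 118.8 CPM in aged against 147.9, 145.5 and 133.8 CPM in young libraries, overlapping at -0.11 (edgeR adjusted p = 0.74). Its partner subunit Xrcc5 had promoter levels of 58.8, 60.5 and 63.4 CPM in aged against 51.1, 56.4 and 70.4 CPM in young libraries, the aged values lying inside the young range, at 0.090. Lig4, the ligase of this pathway, had a start-site log2 fold change of 0.062.

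Base excision repair held the one start site with a small unadjusted p. Mutyh, a glycosylase that removes adenine placed opposite oxidised guanine, had start-site levels of 99.3, 97.1 and 95.4 CPM in aged against 105.7, 105.1 and 114.1 CPM in young libraries. All 3 aged values were below all 3 young ones, at a log2 fold change of -0.14 (SE 0.066, unadjusted p = 0.042, edgeR adjusted p = 0.52), and this peak is shared with Toe1. Parp1, which marks strand breaks with poly(ADP-ribose), had 55.0, 52.1 and 53.7 CPM in aged against 56.1, 57.0 and 63.0 CPM in young libraries. The ages were apart here too, at a log2 fold change of -0.11 (edgeR adjusted p = 0.80). Ogg1, which removes oxidised guanine itself, had 202.2, 191.0 and 195.9 CPM in aged against 191.8, 201.4 and 208.7 CPM in young libraries, overlapping at -0.023. Apex1, the endonuclease that cuts at the emptied site, had promoter levels of 164.0, 151.3 and 152.0 CPM in aged against 166.3, 151.8 and 153.0 CPM in young libraries, also overlapping at -0.020. Xrcc1, the scaffold for single-strand break repair, had 150.0, 148.9 and 142.1 CPM in aged against 154.7, 150.0 and 152.0 CPM in young libraries. Its aged values stopped just short of the young ones, at -0.051 (SE 0.066). Lig1, the replicative ligase with the E2F motif in its window, had 118.1, 109.3 and 119.8 CPM in aged against 108.2, 108.3 and 113.5 CPM in young libraries, overlapping at 0.078. Polb, the gap-filling polymerase, Lig3, the ligase that partners XRCC1, and Parp2 had log2 fold changes of 0.048, -0.0069 and -0.025.

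The mismatch repair members were all slightly below zero. Msh6, which reads single mismatches, had promoter levels of 146.7, 153.0 and 134.9 CPM in aged against 149.2, 147.8 and 155.6 CPM in young libraries, overlapping at a log2 fold change of -0.049. Msh3, which reads small loops, had 215.1, 193.0 and 194.3 CPM in aged against 226.0, 202.4 and 192.1 CPM in young libraries, overlapping at -0.060. Pms2, the nuclease subunit that follows them, had -0.028 at its start site. None of the 3 passed the test.

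Nucleotide excision repair, which cuts out bulky and ultraviolet lesions, held Ercc3, the member promoter with the highest log2 fold change. Ercc3, a helicase of the transcription factor TFIIH that opens DNA around the lesion, had 97.7, 94.9 and 90.6 CPM in aged against 83.7, 85.6 and 86.7 CPM in young libraries. Each aged value was above each young one, at a log2 fold change of 0.15 (SE 0.081 and edgeR adjusted p = 0.65), and the difference did not pass the test. Ercc5, the nuclease that cuts on one side of the lesion, had 89.5, 88.9 and 88.3 CPM in aged against 84.1, 81.6 and 88.2 CPM in young libraries, the ages again apart but by a narrow gap, at 0.081. Xpc, which finds the lesion, had 120.4, 120.9 and 111.4 CPM in aged against 133.9, 115.9 and 114.0 CPM in young libraries, overlapping at -0.059. Ercc1, a subunit of the nuclease that cuts on the other side, had start-site levels of 137.5, 130.8 and 132.7 CPM in aged against 137.4, 126.2 and 123.0 CPM in young libraries, overlapping at 0.039. Its partner Ercc4, the TFIIH helicase Ercc2 and the scaffold Xpa had log2 fold changes of -0.047, -0.055 and -0.045.

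In the Fanconi anaemia pathway, which unhooks crosslinks, Fancd2 had 33.0, 32.1 and 27.9 CPM in aged against 32.0, 30.0 and 30.9 CPM in young libraries, the ages overlapping at a log2 fold change of 0.0014. Fanca, of the core complex, had -0.10 at its start site (edgeR adjusted p = 0.74). Of the RecQ helicases, Blm had 193.3, 186.0 and 180.4 CPM in aged against 187.0, 182.8 and 231.1 CPM in young libraries. Young 4 stood above the other 5 Blm values, which overlapped, and without it the log2 fold change was 0.012 instead of -0.070. Wrn, lost in Werner syndrome, had 86.7, 70.8 and 72.9 CPM in aged against 72.2, 69.4 and 75.0 CPM in young libraries, with aged 1 above the rest and a log2 fold change of 0.094, or 0.00067 without aged 1.

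Away from start sites, 1 member peak passed the test between ages, inside Brca1, a share of member peaks close to that of all peaks. Of 83 tested member peaks, 25 at promoters and 58 distal, 1 passed the test, higher in aged, and 0 were lower, where 1.60% of all 129588 tested peaks passed in either direction and 1.07% passed as higher. Without adjustment 6 of 83 had p under 0.05, against 8.82% of all peaks. The ages did not overlap for 11 of 83, 8 higher and 3 lower in aged, against 13.9% of all peaks. The distal member peaks had a median log2 fold change of 0.032, with 38 above zero and 20 below. Over all tested peaks, promoter and distal together, the median was -0.0038, with 63861 above zero and 65727 below. The split of the distal member peaks was not tested. They were mostly intronic (30 of 67) or intergenic (18 of 67), and 6 of them, of 4 genes, lay within 1000 bp of the gene's own RefSeq start.

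**Figure D3:**
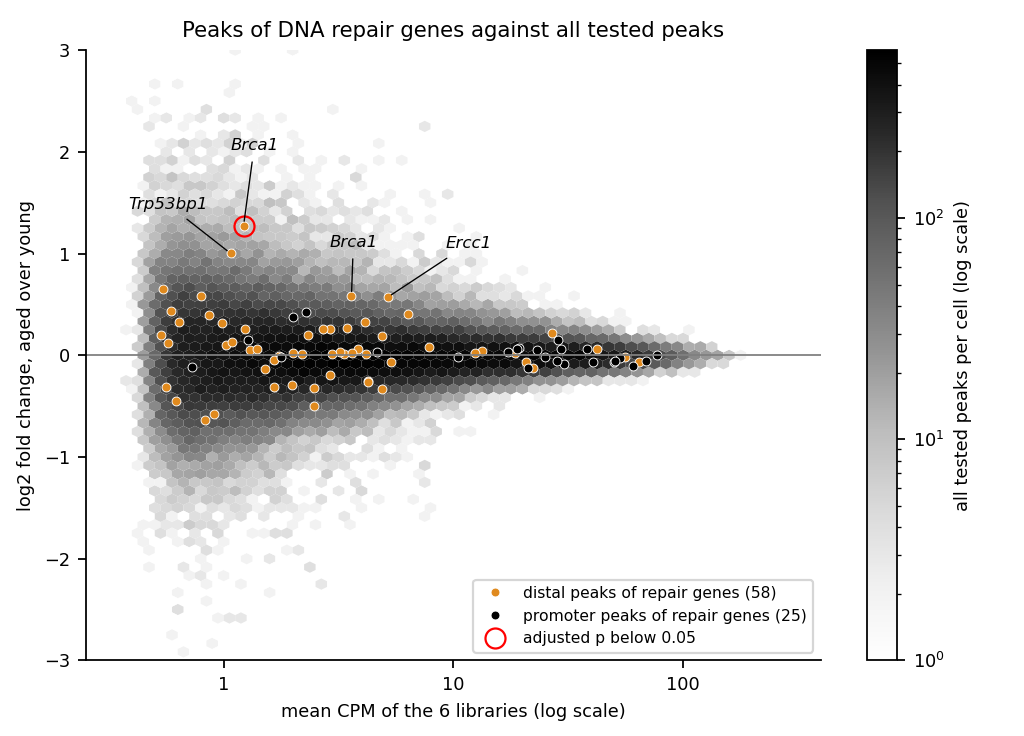
Log2 fold change, aged over young, against mean CPM (log axis) of 83 member peaks, black for promoter and orange for distal peaks, over the density of all 129588 tested peaks in grey. The circled Brca1 peak is the only member peak past an adjusted p of 0.05, it sits among weak peaks near 1 CPM, and the strong promoter peaks lie close to 0.

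The Brca1 peak spanned chr11:101519070-101519190 on GRCm38, 121 bp, in an intron of Brca1 by the deposited annotation, and its centre was 32825 bp from the RefSeq start inside the gene. It had 1.66, 1.96 and 1.59 peak CPM in aged against 0.824, 0.644 and 0.637 peak CPM in young libraries. All aged values were above all young ones, at 2.42-fold (log2 fold change 1.27, SE 0.32 and edgeR adjusted p = 0.029). These levels rest on 27, 47 and 28 counts in aged and 18, 13 and 4 counts in young libraries. With the replicate block it was called (edgeR adjusted p = 0.0040), and limma-voom also called 1 member peak as higher. DESeq2 did not call it (adjusted p = 0.20), and leaving out any 1 of the 6 libraries ended the call, with adjusted p between 0.053 and 0.24 and log2 fold changes between 1.17 and 1.44. A stronger neighbouring peak in the same intron, chr11:101519357-101519793, had 4.68, 4.30 and 4.15 peak CPM in aged against 3.25, 2.82 and 2.39 peak CPM in young libraries. The ages were apart there as well, at a log2 fold change of 0.58, but the peak did not pass the test (edgeR adjusted p = 0.22). The other 2 peaks named for Brca1, at listed distances of 7577 and 17445 bp, had log2 fold changes of 0.20 and 0.022, and the start-site peak had -0.086, all with overlapping ages. Summed over its 4 distal peaks, Brca1 had 0.18 (edgeR adjusted p = 0.70).

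**Figure D4:**
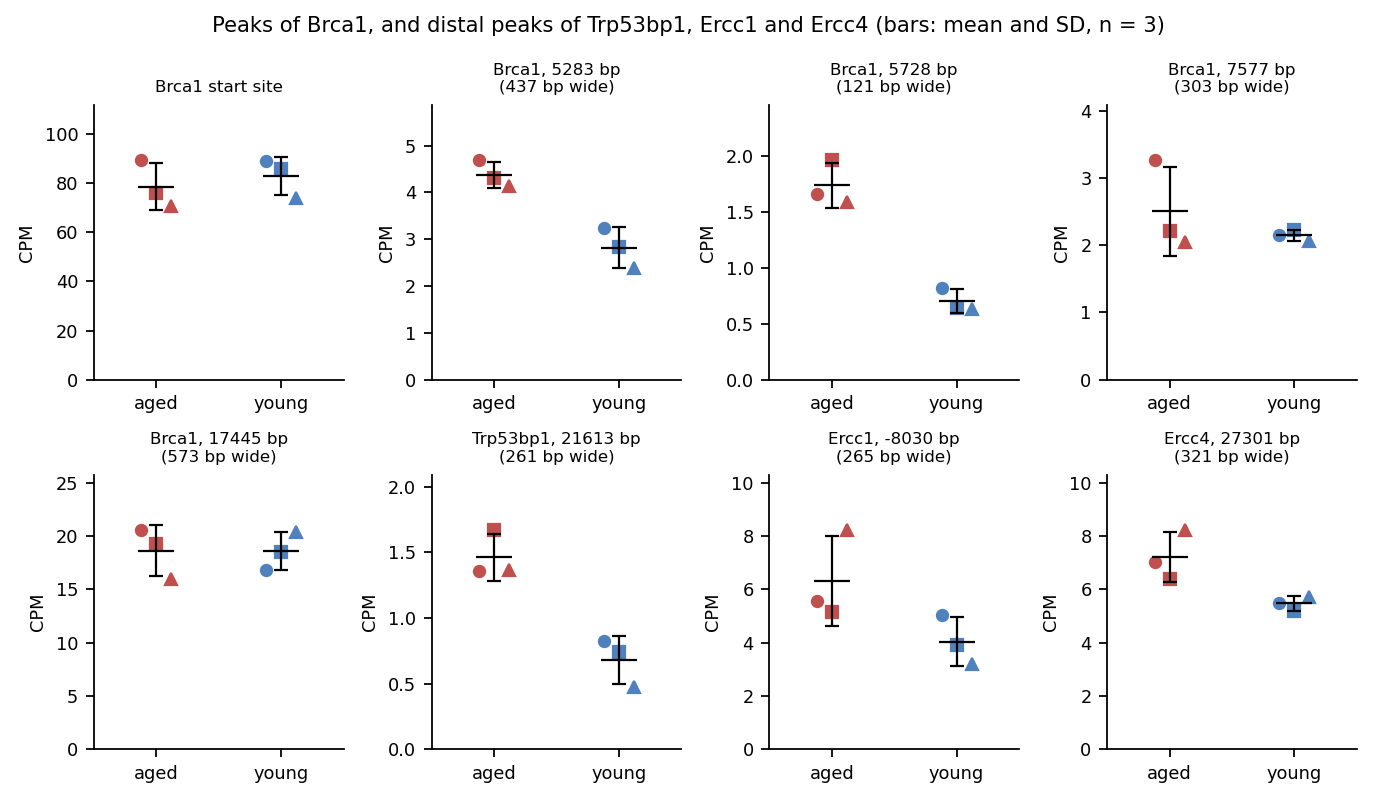
Peak CPM per library, aged left of young, at the Brca1 start site, at the 4 peaks named for Brca1 and at 1 distal peak each of Trp53bp1, Ercc1 and Ercc4; titles give the listed distance to the start site and the peak width, points are libraries and bars the mean and SD (n = 3). Aged and young points are apart at the Brca1 peaks at 5728 and 5283 bp and overlap at its other peaks and at its start site. Listed distances are not those to the RefSeq start: the Brca1 peak listed at 5728 bp had its centre 32825 bp from it.

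Over distal sums, 0 of 26 tested members passed the test, against 1.72% of all 23935 genes. DESeq2 and limma-voom called 0, against 367 and 410 of all distal sums. Without adjustment 1 of 26 had p under 0.05, against 9.68%. That one was Trp53bp1, whose 2 distal peaks held 3.63, 3.81 and 2.93 distal CPM in aged against 2.08, 1.54 and 1.35 distal CPM in young libraries. All aged values were above all young ones, at a log2 fold change of 0.997 (SE 0.30 and edgeR adjusted p = 0.11). With library numbers as a replicate block the same sum passed the test (log2 fold change 1.06, adjusted p = 0.022), as did 4.56% of all distal sums, and it rests on 30 to 53 counts in aged and 5 to 26 counts in young libraries. The stronger share came from a peak at chr2:121199636-121199896, listed 21613 bp from the start, annotated to the transcript end of another gene, with 1.36, 1.67 and 1.36 peak CPM in aged against 0.824, 0.743 and 0.478 peak CPM in young libraries. This peak alone did not pass the test (edgeR adjusted p = 0.18).

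Other distal peaks with small p-values also fell short of the threshold. Ercc1 had a peak at chr7:19344471-19344735, within 1000 bp of its RefSeq start although listed at -8030 bp, with 5.55, 5.14 and 8.23 peak CPM in aged against 5.03, 3.91 and 3.18 peak CPM in young libraries. The ages were apart, with aged 4 standing highest, at a log2 fold change of 0.57 (edgeR adjusted p = 0.23), while the whole Ercc1 start-site sum had 0.039. Ercc4 had a pair of intergenic peaks at listed distances of 27301 and 28020 bp. The peak at 27301 bp had 7.03, 6.39 and 8.23 peak CPM in aged against 5.49, 5.20 and 5.73 peak CPM in young libraries, at 0.41, and the peak at 28020 bp had 28.7, 28.8 and 29.2 peak CPM in aged against 22.5, 25.9 and 26.4 peak CPM in young libraries, at 0.22. Both had the ages apart, with adjusted p = 0.41 and 0.62 by edgeR.

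Among lower values, Msh6 had an intergenic peak at a listed distance of -25810 bp with 1.60, 2.47 and 2.04 peak CPM in aged against 2.98, 2.97 and 2.71 peak CPM in young libraries. The ages were apart, at a log2 fold change of -0.50 (edgeR adjusted p = 0.54). Xpa at -23675 bp had 4.38, 3.72 and 4.77 peak CPM in aged against 5.72, 4.56 and 6.21 peak CPM in young libraries, which overlapped, at -0.33. Ercc4 at -47133 bp had 0.493, 0.543 and 0.852 peak CPM in aged against 0.687, 1.14 and 1.27 peak CPM in young libraries, overlapping at -0.63. Of 4 distal Blm peaks upstream of its start, the ones at -21396 bp (ages overlapping) and -20838 bp (ages apart) had log2 fold changes of -0.57 and -0.32, while those at -22335 and -45561 bp had 0.049 and 0.33. Fanca at -7593 bp, in an intron, had -0.25. All of these missed the threshold, with adjusted p from 0.54 to 0.99 by edgeR.

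Other DNA repair genes, 98 in all and none of them members, gave 64 tested promoters, with a median log2 fold change of -0.011. Of these, 2 passed the test as higher in aged and 0 as lower, where 1.74% of all promoters passed in either direction. Parp3, a poly(ADP-ribose) polymerase of the break response, had 61.8, 55.0 and 66.0 promoter CPM in aged against 34.5, 38.2 and 37.0 promoter CPM in young libraries. Every aged value was above every young one, at 1.67-fold (log2 fold change 0.74, SE 0.11 and edgeR adjusted p = 0.00014). Gtf2h2, a structural subunit of TFIIH and so a partner of the member ERCC3, had 100.1, 97.8 and 109.5 promoter CPM in aged against 73.5, 68.9 and 75.0 promoter CPM in young libraries, at 1.42-fold (log2 fold change 0.51, SE 0.085 and edgeR adjusted p = 0.00050). In neither gene did all nearby peaks have such values. The Parp3 peak at 28 bp had a log2 fold change of 0.95 and the peak at -513 bp had 0.54 (edgeR adjusted p = 0.074, and 0.0092 with the block), while the strong peak at -1079 bp, just outside the promoter limit, with 76.7, 67.4 and 70.0 peak CPM in aged against 79.4, 71.3 and 64.3 peak CPM in young libraries, had -0.014. The peaks at -513 and -1079 bp were annotated to the promoter of another gene. Summed at the RefSeq start, which takes in that strong peak, Parp3 no longer passed the test (log2 fold change 0.13, edgeR adjusted p = 0.45). The Gtf2h2 peak at -995 bp had 24.3, 21.8 and 26.4 peak CPM in aged against 14.7, 11.9 and 14.8 peak CPM in young libraries, a log2 fold change of 0.82, while the peak at 120 bp had -0.079. At RefSeq start sites 75 of these genes were tested. Gtf2h2 was the only one called without the replicate block (log2 fold change 0.51, edgeR adjusted p = 0.00043), where 1.59% of all start sites were called. With the block, which called 3.32% of all start sites, Eme1, a subunit of a nuclease for branched DNA, was also called, lower in aged. It had 35.6, 41.3 and 35.0 TSS CPM in aged against 43.5, 48.95 and 47.8 TSS CPM in young libraries, the ages apart at a log2 fold change of -0.31, with adjusted p = 0.042 with the block and 0.18 without it.

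**Figure D5:**
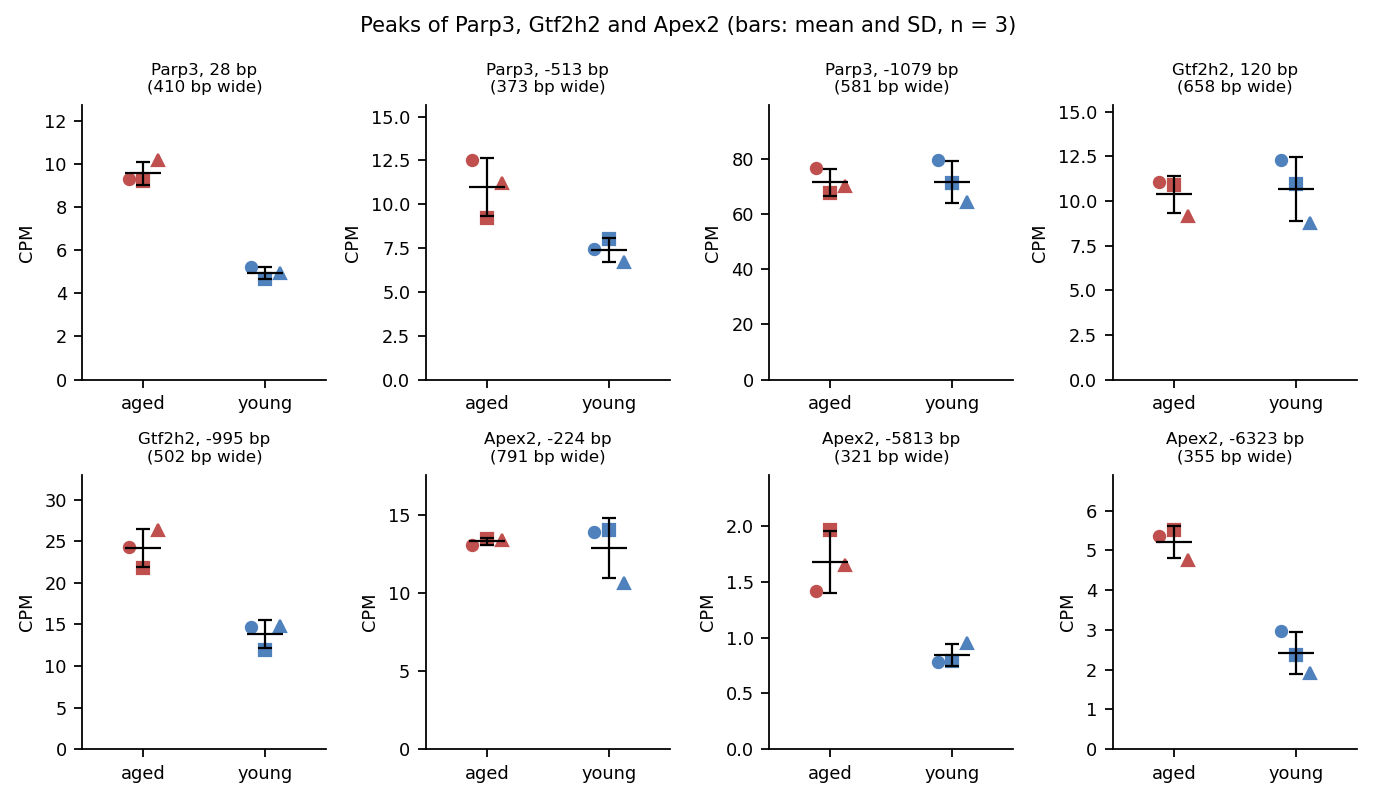
Peak CPM per library, aged left of young, at peaks of Parp3, Gtf2h2 and Apex2, repair genes outside the set of 38; titles give the listed distance to the start site and the peak width, points are libraries and bars the mean and SD (n = 3). The ages are apart at Parp3 28 and -513 bp, Gtf2h2 -995 bp and Apex2 -5813 and -6323 bp, and overlap at Parp3 -1079 bp, Gtf2h2 120 bp and Apex2 -224 bp.

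Of 66 tested distal sums of these genes, 1 was called higher and 0 lower without the replicate block, where 1.72% of all distal sums were called. With the block 3 were called higher and 0 lower, where 4.56% of all distal sums were called. Apex2, an endonuclease related to Apex1, had 17.7, 18.7 and 18.6 distal CPM in aged against 12.1, 13.0 and 9.42 distal CPM in young libraries, at 1.55-fold (log2 fold change 0.63, SE 0.15 and edgeR adjusted p = 0.025). The call was lost without aged 2, aged 4, young 1, young 2 or young 4, with adjusted p between 0.055 and 0.090, and after thinning to the shallowest library (adjusted p = 0.11). The Apex2 difference lay at -5813 and -6323 bp, in peaks annotated to the promoter of another gene (edgeR adjusted p = 0.11 and 0.0025, and 0.037 and 1.8e-05 with the block), and the Apex2 promoter itself had 0.031. The sums called with the block alone were Mlh3, a mismatch repair protein, and Mgmt, which strips alkyl groups from guanine. Mlh3 had 8.98, 5.69 and 5.95 distal CPM in aged against 3.20, 4.45 and 2.69 distal CPM in young libraries, the ages apart at a log2 fold change of 0.92 (edgeR adjusted p = 0.067, and 0.0084 with the block). Mgmt had 2.99, 3.02 and 3.998 distal CPM in aged against 1.76, 1.11 and 1.61 distal CPM in young libraries, also apart, at 1.17 (edgeR adjusted p = 0.063, and 0.021 with the block). Proliferation and DNA replication genes, which dividing crypt cells use alongside repair genes, gave 16 tested promoters with a median log2 fold change of -0.040. Of these, 0 were called by edgeR, against 1.74% of all promoters, and 0 had an unadjusted p under 0.05, against 8.92%. DESeq2 and limma-voom called 0, against 204 and 277 of all 13869 promoters. Their 22 RefSeq start sites likewise gave 0 calls, against 1.59% of all start sites, with a median of -0.038, beside -0.038 for the members. Their 18 tested distal sums gave 0 calls, against 1.72% of all distal sums, and 1 had an unadjusted p under 0.05, against 9.68%. The ages were apart for 5 of these as higher and 2 as lower in aged, against 1853 and 1708 of all 23935.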

How the data were processed

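The authors deposited raw read counts for each consensus peak and library. They also gave an annotation that names 1 gene for each peak and lists a distance to the start site. Per the submitters' processing notes, the tools included BWA 0.7.17-r1188, MACS2 2.2.7.1 and featureCounts 2.0.1 on GRCm38; no settings are given in the sources used here. The count table has 1 column per library and the records 4 lanes of each, so 24 records are 6 libraries.

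The members and lists were chosen with earlier results of these data known. Counts were tested per peak and as sums per gene at promoters (1000 bp or less), at distal peaks (up to 50000 bp) and, added after the files were seen, at RefSeq start sites. Each test was edgeR 4.0.16 quasi-likelihood (filterByExpr, TMM, robust, age as the only term) over all features, with Benjamini-Hochberg adjustment and a call at adjusted p under 0.05. Levels are CPM over TMM-scaled totals, and the script was tested on simulated data. DESeq2 1.42.0 and limma 3.58.1 were alternatives, as were other scalings and filters, each library left out, a replicate block, windows of 500 and 2000 bp, a distal limit of 20000 bp and thinning to the shallowest library. Values in every library are given for members with a call and for the 6 promoters and 6 distal peaks of smallest p per direction. They are also given for the highest and lowest levels, and for Atm, Brca1, Brca2, Parp1, Ogg1, Ercc1, Xrcc6, Msh6, Apex1 and Chek1. Rad50 and the distal peaks of Blm and Fanca are exceptions, described without a value for each library.

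Library numbers recur in both ages. Deviations from the age means correlated at 0.236, 0.182 and 0.123 between libraries of the same number and at -0.194 to 0.0287 between different numbers, so the numbers were taken as pairs from the data, the labels not saying what they mark; the blocked value is given where it changes a call.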

Additional observations from a re-analysis of the deposited data

How the results depend on the processing

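None of the 516 alternative fits of member start sites gave a call, and the smallest adjusted p among them was 0.30 (Mutyh). Of these, 31 changed the sign of a value near zero. The median promoter log2 fold change was 0.037 after thinning to the shallowest library, against -0.013. Signs also turned with thinning for Lig3 (0.074), Xpa (0.053), Chek1 (0.039), Chek2 (5.9e-05) and Mre11a (0.020), with the replicate block for Lig3 (0.019), and for Fancd2 with plain library totals (-0.00017) and limma-voom (-0.00088). Leaving out 1 library gave ranges across zero for Atm (-0.020 to 0.051), Rad50 (-0.30 to 0.075), Xrcc5 (-0.012 to 0.18), Apex1 (-0.057 to 0.032), Polb (-0.0064 to 0.14), Lig3 (-0.11 to 0.093), Msh3 (-0.11 to 0.016), Xpc (-0.10 to 0.031), Fancd2 (-0.041 to 0.070), Blm (-0.13 to 0.012), Chek2 (-0.092 to 0.022), Mre11a (-0.051 to 0.012), Parp2 (-0.067 to 0.010), Pms2 (-0.069 to 0.015) and Ercc4 (-0.095 to 0.023). The 1 member peak called higher, in Brca1, became 0 calls with DESeq2, with thinning and without any 1 library (0 to 0). A minimum of 10 counts in every library also gave 0 calls, but it left this peak untested, young 4 holding 4 counts. The number stayed at 1 with limma-voom, the replicate block, DESeq2 size factors, plain library totals and no low-count filter. With the replicate block 1 distal sum was called higher (Trp53bp1), against 0 without it; the block changed no other call of a member. Calls over all peaks numbered 1393 higher and 684 lower, and 2578 and 1420 with the block. The cause of these changes was not tested. The called Brca1 peak held 4 to 47 counts per library.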
